A study of Mus musculus with 23 samples.

Results

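Subclones 2 and 18 are a pair of clonal cell lines taken from Lewis lung carcinoma (LLC), a mouse lung tumour line that grows when transplanted into mice. The comparison uses 6 of the 23 Affymetrix arrays of the series, with 3 arrays labelled as biological replicates for each subclone, and the other 17 arrays measured subclones 3, 6, 19, 23, 24 and 28. Per the labels, every subclone was isolated from the parental cells by limiting dilution, kept in DMEM with 10% fetal bovine serum, and then held for 24 h without serum in FreeStyle medium, as for making conditioned medium, before total RNA was taken. Neither subclone carries an engineered allele or drug treatment in the labels, and the groups differ only in the clone. Each group is 1 clonal line, so the spread over its 3 arrays holds no spread between independent clones. The labels do not say whether the replicates came from separate cultures, so the errors below measure the spread between these arrays.

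Tumour cell lines hold cells that differ from one another in heritable ways, and growing a line from a single cell fixes one of those states. Secreted proteases such as matrix metalloproteinases cut the proteins around a cell, keratins form the intermediate filaments of epithelial cells, and RNA-binding proteins of the CELF family steer splicing and messenger stability. Medium conditioned by LLC cells is a common source of tumour-secreted factors in studies of cancer-associated wasting.

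The pair was chosen by its count of genes with different intensities, the highest of any pair of subclones, so what follows describes these arrays and gives no test. Values are log2(intensity + 16), with 1 probe set for each of 18193 genes. A gene is termed called where its limma adjusted p was under 0.05 and its means differed at least 2-fold. By that count 819 genes differed between subclones 2 and 18, which is 4.5% of the genes measured. The next pair, subclones 28 and 18, had 817, and subclones 3 and 18 had 786. The lowest count of the 28 pairs was 101, for subclones 3 and 6. Against the other subclones, subclone 2 had between 174 (subclone 6) and 576 (subclone 19) called genes, and subclone 18 had between 458 (subclone 23) and 817.

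Of the 819 called genes, 428 were higher in subclone 2 and 391 were higher in subclone 18, or 2.35% and 2.15% of the genes measured. Those shares are the background for the list counts below. At an adjusted p under 0.05 of any size they were 20.9% and 23%. In all 819 the 3 arrays of one subclone lay beyond the 3 of the other, as they did in 50.8% of all genes. Differences of at least 4-fold were found in 112 genes higher in subclone 2 and 61 higher in subclone 18, and of at least 16-fold in 15 and 8. Many of these genes were close to the lower end of the scale in the lower subclone. In 149 of the 428 genes higher in subclone 2, all 3 arrays of subclone 18 were under an intensity of 50, which is 6.04 on the log2 scale, and in 114 of the 391 genes higher in subclone 18 all 3 arrays of subclone 2 were. The constant of 16 compresses differences of dim genes, so their fold is understated. With a constant of 1 the genes called higher in subclone 18 became 598, and with 64 they became 229, while those called higher in subclone 2 stayed within 1.5 times.

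**Figure D1:**
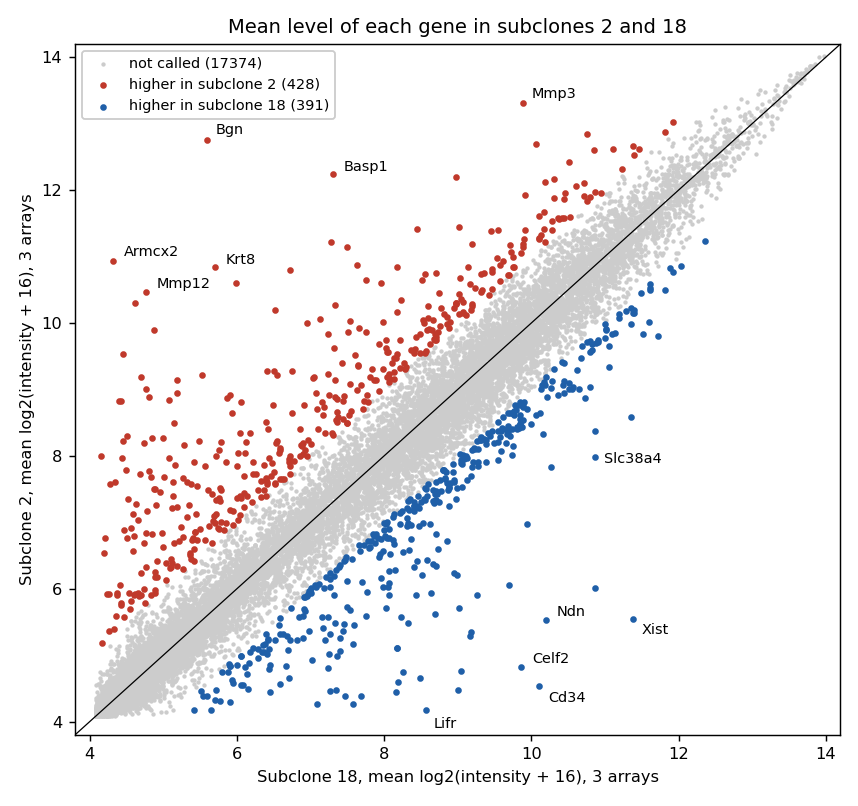
Mean log2(intensity + 16) over 3 arrays in subclone 18 (x axis) and subclone 2 (y axis) for each of 18193 genes, with genes called higher in subclone 2 in red, those called higher in subclone 18 in blue and the rest in grey. The line marks equal levels, and named examples stand well off it, such as Bgn at 12.76 in subclone 2 and 5.59 in subclone 18.

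Mmp12, Krt8 and Celf2 had been picked to mark this pair. Mmp12 encodes macrophage metalloelastase, a protease that degrades elastin. Its levels were 10.41, 10.53 and 10.48 on the arrays of subclone 2 and 4.95, 4.49 and 4.84 on those of subclone 18. The groups did not overlap, and the means of 10.47 ± 0.06 and 4.76 ± 0.237 (SD, n = 3 each) differed by 5.71 ± 0.13 (SE), or 52.4-fold. Subclone 2 held the highest mean of the 8 subclones, since the other 6 ranged from 4.59 in subclone 19 to 8.97 in subclone 6.

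Krt8 encodes a keratin of simple epithelia, which pairs with the product of Krt18. Its levels were 10.78, 10.84 and 10.90 in subclone 2 and 5.59, 5.66 and 5.86 in subclone 18. Here subclone 18 was the one that stood away, because the other 6 subclones had means between 10.32 and 11.29. The difference was 5.14 ± 0.059, or 35.2-fold, and 2 further probe sets of the gene gave 5.34 and 5.57. Its partner Krt18, the next expressed gene on chromosome 15, was at 11.58 ± 0.056 in subclone 2 and 10.82 ± 0.017 in subclone 18, a difference of 0.76 ± 0.04 that was below 2-fold. Krt6a, on the other side of Krt8, differed by -0.19.

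Celf2, an RNA-binding regulator of splicing, ran the other way. Its levels were 4.99, 4.74 and 4.73 in subclone 2 and 9.74, 9.82 and 10.02 in subclone 18. All arrays of subclone 18 were above all others, with means of the other 6 subclones between 4.65 (subclone 24) and 7.69 (subclone 23). The difference was -5.04 ± 0.11, or 32.9-fold, and of 6 further probe sets those at -4.09 and -5.28 showed it while the other 4, all near the lower end of the scale, lay between -0.52 and 0.10. Among 38 RNA-binding splicing regulators, Celf2 was the only called gene higher in subclone 18, and its relative Celf4 (1.32 ± 0.051) the only one higher in subclone 2, joined by 1 more gene without the second array of either subclone. The median of the list was -0.06, against -0.01 for all genes.

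**Figure D2:**
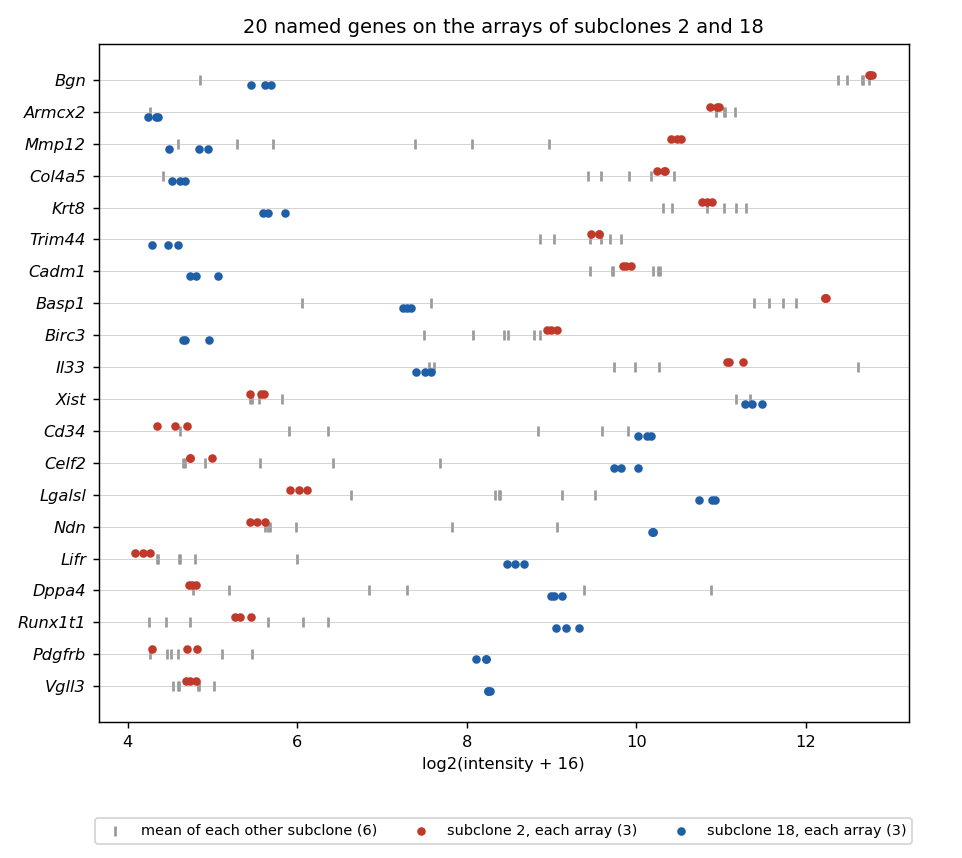
Levels of 20 named genes as log2(intensity + 16), with each array of subclone 2 in red, each array of subclone 18 in blue and the mean of each of the other 6 subclones as a grey tick. In the upper 10 genes all red points lie right of all blue points and in the lower 10 all lie left. The ticks for Krt8, Trim44, Cadm1 and Birc3 lie with subclone 2, and those for Mmp12 and Cd34 spread between.

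In a list of extracellular proteases and their inhibitors, more members were higher in subclone 2 than in subclone 18. Of 46 measured members, 15 were called higher in subclone 2 and 1 in subclone 18, and the median difference was 0.52. At an adjusted p under 0.05 of any size the counts were 30 and 7, where 20.9% and 23% of all genes were so called. The metalloproteinase genes next to Mmp12 on chromosome 9 shared its direction. Mmp13, a collagenase, was at 11.16, 11.26 and 11.24 in subclone 2 and at 7.21, 7.36 and 7.26 in subclone 18 (3.94 ± 0.081). Mmp3, stromelysin, was at 13.29, 13.30 and 13.34 against 9.92, 9.86 and 9.85 (3.44 ± 0.05). Mmp10 followed at 1.07. Neither Mmp13 nor Mmp3 overlapped between the subclones.

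Members of the list on other chromosomes included Mmp9, Plau and Ctsh. Mmp9, a gelatinase on chromosome 2, differed by 2.89 ± 0.079. Plau, the urokinase plasminogen activator, had 10.59, 10.57 and 10.63 in subclone 2 and 7.91, 8.07 and 7.88 in subclone 18 (2.64 ± 0.07). The lysosomal cathepsin gene Ctsh was at 8.27 ± 0.156 and 4.85 ± 0.068 (3.42 ± 0.10). Reck, a membrane-bound inhibitor of metalloproteinases, differed by 2.19 ± 0.081 and Timp3, a secreted one, by 1.30 ± 0.11. Adamts1 was the only list member called higher in subclone 18, at -1.22 ± 0.053, and its level of 10.79 ± 0.08 in subclone 18 was above every other subclone (8.43 to 9.72). Protease genes outside the list, picked after their values were seen, were also called higher in subclone 18, among them Cpa6 (-2.06), Ctsf (-1.6), Pcsk6 (-1.34) and Htra3 (-1.03).

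Matrix genes were divided between the subclones, with 7 of 56 called higher in subclone 2, 4 higher in subclone 18 and a median of 0.00. Bgn, coding for the proteoglycan biglycan, had the largest difference by the probe set kept for each gene. It was at 12.76, 12.78 and 12.75 in subclone 2 and at 5.45, 5.69 and 5.62 in subclone 18, with no overlap (7.18 ± 0.093, or 145-fold). All 3 arrays of subclone 18 were under an intensity of 50 there, so the size rests on the constant of 16, and 2 further probe sets of Bgn gave 5.80 and 5.91. Only subclone 19, at 4.85, shared the low level, and the other 5 had means from 12.38 to 12.75. Col4a5, a chain of basement-membrane collagen IV, had the same arrangement, with means of 10.30 ± 0.056 and 4.61 ± 0.077 for the pair and 4.42 for subclone 19.

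Cthrc1, a secreted glycoprotein of remodelling tissue, was higher in subclone 2 by 3.81 ± 0.13 and Dcn, coding for decorin, by 3.22 ± 0.072. Subclone 18 in turn had more Nid2, a basement-membrane linker, at 6.79, 7.12 and 7.35 against 4.43, 4.09 and 4.28. No other subclone had a Nid2 mean above 4.36, so this gene was apart in subclone 18. Ogn, a further small proteoglycan, was higher in subclone 18 by 2.14 on the log2 scale (-2.14 ± 0.14), and Col6a2, a collagen VI chain, differed by -1.13 ± 0.071.

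Adhesion molecules gave 7 genes called higher in subclone 2 and 2 higher in subclone 18 among 45, with a median of 0.18. Over all genes, 2.35% and 2.15% were so called. Cadm1, an immunoglobulin-family adhesion protein, was at 9.94, 9.88 and 9.85 in subclone 2 and at 4.74, 4.80 and 5.07 in subclone 18. The difference of 5.02 ± 0.064 set subclone 18 apart, with all other means between 9.46 and 10.28. Its relative Cadm4 differed by 2.28 ± 0.078 and Alcam by 1.5 ± 0.044. Cd34, a sialomucin of blood-forming and endothelial cells, was reversed, at 4.56, 4.34 and 4.70 in subclone 2 and 10.02, 10.17 and 10.13 in subclone 18 (-5.57 ± 0.098). Subclone 23 (9.90) and subclone 28 (9.60) had levels near that of subclone 18, and subclone 19 was at 8.84. Cdh13, a cadherin without a cytoplasmic tail, differed by -1.96 ± 0.066.

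Cytokine and chemokine genes were called in both directions. Among 45 cytokines and chemokines, 5 were called higher in subclone 2 and 3 higher in subclone 18, and the median was 0.00. At any size 16 were higher in subclone 2 and 6 in subclone 18, where 20.9% and 23% of all genes were so called. Il33, an alarmin of the interleukin-1 family, was at 11.09, 11.26 and 11.07 in subclone 2 and at 7.58, 7.51 and 7.4 in subclone 18, without overlap (3.64 ± 0.091, or 12.5-fold). Ccl5, a chemokine for T cells and monocytes, differed by 3.95 ± 0.13, Tslp, a cytokine acting on dendritic cells, by 2.55 ± 0.12, and Cxcl5, a neutrophil chemokine, by 1.07 ± 0.075. Those higher in subclone 18 were Cxcl3 (-1.77 ± 0.14), Il15 (-1.18 ± 0.084) and Cxcl15 (-1.08 ± 0.13), of which Il15 (-0.64) and Cxcl15 (-0.53) were below 2-fold with a constant of 64, Cxcl15 also without the third array of subclone 18 (-0.98).

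The gp130 family, which signals through the shared receptor subunit gp130, differed in both a ligand and a receptor. Il11, a ligand, had 9.20, 9.29 and 9.32 in subclone 2 and 6.73, 6.48 and 6.28 in subclone 18 (2.77 ± 0.086). Lifr, the receptor subunit for leukaemia inhibitory factor, had 4.09, 4.18 and 4.26 in subclone 2 and 8.47, 8.57 and 8.67 in subclone 18 (-4.39 ± 0.083, or 21.0-fold). Subclone 18 was alone at that Lifr level, since the next highest mean was 6.0 in subclone 19. The common subunit gene Il6st was at 9.87 and 10.14 and the ligand gene Lif at 8.39 and 7.99, both short of 2-fold. For Lifr, 2 further probe sets, dim on all arrays, gave -0.19 and -0.17. These were the only called genes among 19 members, and the median was 0.22.

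Growth factors were more often higher in subclone 2, with 11 of 55 called in that direction, 3 called higher in subclone 18 and a median of 0.10. The shares over all genes were 2.35% and 2.15%. Stc1, coding for the hormone stanniocalcin, was at 9.84 ± 0.024 and 7.23 ± 0.19 (2.61 ± 0.091). Several act on blood vessels. Angpt2, a ligand of the Tie2 receptor, was at 8.33, 8.30 and 8.38 in subclone 2 and 6.0, 6.19 and 5.94 in subclone 18, and the other 6 subclones had means from 7.70 to 8.76. Pgf, placental growth factor, differed by 2.09 ± 0.14 and Vegfa by 1.17 ± 0.092, although Vegfa came to 0.89 when all its probe sets were averaged. Flt1, the receptor that binds both, was at 8.77 ± 0.059 and 6.49 ± 0.223 (2.28 ± 0.093), again with subclone 18 apart.

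Ligands of the transforming growth factor family went both ways. Inhba (1.08) and Bmp2 (1.14 ± 0.11) were higher in subclone 2, while Inhbb (-1.71 ± 0.076) and Tgfb2 (-1.27 ± 0.19) were higher in subclone 18. Neither Inhbb (-0.99) nor Tgfb2 (-0.71) reached 2-fold as a mean over its probe sets. Fst, which codes for the activin-binding protein follistatin, was at 5.90, 5.91 and 6.01 in subclone 2 and 8.44, 8.65 and 8.85 in subclone 18 (-2.70 ± 0.14). Subclone 2 had the lowest Fst mean of the 8 subclones, the next being 6.55 in subclone 24. Among 31 target genes of transforming growth factor and YAP signalling, 2 were called higher in subclone 2 and 6 higher in subclone 18, with a median of -0.18. Of the 2, F3 was below 2-fold without the second array of subclone 2 (0.99) or the first of subclone 18 (0.94). Subclone 18 had the higher levels of Ankrd1 (-2.78 ± 0.11), Amotl2 (-2.44 ± 0.073) and Ajuba (-1.41 ± 0.075), and of Vgll3, a cofactor of TEAD factors, which was at 8.25, 8.25 and 8.28 against 4.81, 4.74 and 4.69. No other subclone had a Vgll3 mean above 5.02.

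Receptor tyrosine kinases and related surface receptors had 3 of 52 genes called higher in subclone 2 and 2 higher in subclone 18, with a median of -0.01. Pdgfrb, a receptor for platelet-derived growth factor, was at 4.82, 4.70 and 4.29 in subclone 2 and at 8.11, 8.23 and 8.23 in subclone 18 (-3.58 ± 0.12). The other 6 subclones lay between 4.26 and 5.46, so only subclone 18 had a Pdgfrb level clear of the lower end. A dimmer Pdgfrb probe set gave -0.66. Pdgfra, the sister receptor gene, was at 8.52 and 8.07. Mertk, a receptor for the uptake of dying cells, was higher in subclone 2 by 1.68 ± 0.079, and Efnb2, an ephrin ligand, was higher in subclone 18 (-1.61 ± 0.058).

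Genes of hypoxia and glycolysis were higher in subclone 2. Of 39 members, 11 were called higher in subclone 2, 1 was called higher in subclone 18 and the median was 0.60. At any size, 32 were higher in subclone 2 and 2 in subclone 18. The mean level over the list was 10.38 to 10.40 on the arrays of subclone 2 and 9.68 to 9.78 on those of subclone 18. Ero1a, an oxidase of the endoplasmic reticulum, was at 12.83, 12.83 and 12.85 against 10.91, 10.55 and 10.83 (2.07 ± 0.083). Egln3, a prolyl hydroxylase that marks hypoxia-inducible factor for decay, differed by 1.91 ± 0.074, and the hexokinase gene Hk2 by 1.57 ± 0.06. Glucose transporter Slc2a1 differed by 1.09 ± 0.065. Hif1a itself was at 12.34 ± 0.04 and 12.19 ± 0.079. Angptl4, an inhibitor of lipoprotein lipase, was the exception, at 9.36, 9.29 and 9.37 in subclone 2 and 11.04, 11.10 and 11.01 in subclone 18 (-1.71 ± 0.09). No label gives an oxygen level or a cell density for these cultures, and their part in these values was not tested.

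Hypoxia-inducible factors bind DNA at a short core that includes ACGTG. Promoter windows of 300 bases, from 250 before to 50 after the start of a gene, were taken from RefSeq (GRCm38.p6) and searched for ACGTG on both strands, where the reverse reads CACGT and both overlap in CACGTG. It was found in 8 of the 11 windows (72.7%) that belong to 10 of the 11 genes called higher in subclone 2, in 21 of 41 windows (51.2%) of the list members not called higher in subclone 2, and in 6447 of 32851 windows (19.6%) of all genes. A match is only a match of letters. The windows of Ankrd37 and P4ha2 are shown because, of the 4 called genes with 2 matches in the window, these had the largest differences. The matches stand in capitals. The other 2 such genes were Hk2 and Bnip3, where the 2 matches of Bnip3 are the strands of a single CACGTG. Ankrd37 (chr8:45999801-46000100, minus strand) was at 8.76 ± 0.043 in subclone 2 and 6.91 ± 0.147 in subclone 18 (1.85 ± 0.097), and P4ha2, a collagen prolyl hydroxylase gene (chr11:54100674-54100973, plus strand), at 10.85 ± 0.048 and 9.14 ± 0.134 (1.71 ± 0.085).
Ankrd37: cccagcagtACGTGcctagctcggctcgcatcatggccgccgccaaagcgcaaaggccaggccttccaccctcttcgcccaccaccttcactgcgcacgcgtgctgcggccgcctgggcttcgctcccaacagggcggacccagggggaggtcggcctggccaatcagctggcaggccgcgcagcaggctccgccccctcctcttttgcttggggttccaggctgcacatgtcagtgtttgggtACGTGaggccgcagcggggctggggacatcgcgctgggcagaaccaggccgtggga
P4ha2: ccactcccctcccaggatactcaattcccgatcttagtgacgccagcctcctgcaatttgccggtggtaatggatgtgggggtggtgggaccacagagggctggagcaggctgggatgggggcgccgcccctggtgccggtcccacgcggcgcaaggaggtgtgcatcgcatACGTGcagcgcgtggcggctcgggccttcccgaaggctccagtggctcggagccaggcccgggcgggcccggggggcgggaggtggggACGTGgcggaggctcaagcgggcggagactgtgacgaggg

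Genes of DNA replication and mitosis were lower in subclone 2. Of 49 members, 22 were called higher in subclone 18 and 0 higher in subclone 2, and the median was -0.89. At an adjusted p under 0.05 of any size, 48 were higher in subclone 18 and 1, E2f1 (0.52 ± 0.086), was higher in subclone 2. The mean level over the list ran from 9.0 to 9.18 on the arrays of subclone 2 and from 9.93 to 10.04 on those of subclone 18. Cdc20, an activator of the anaphase-promoting complex, was at 9.81, 9.75 and 9.94 in subclone 2 and 11.39, 11.55 and 11.63 in subclone 18 (-1.69 ± 0.075). Tk1, thymidine kinase, differed by -1.51 ± 0.07 and the cyclin gene Ccne2 by -1.39 ± 0.071. Replication genes Mcm5 (-1.17 ± 0.053) and Rrm1 (-1.24 ± 0.065) ran the same way. The cell cycle inhibitor gene Cdkn1a was at 12.14 ± 0.014 and 12.27 ± 0.014.

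For a part of this list subclone 2 was the one apart from all others. In 10 of the 22 called members, all 17 arrays of the other subclones were nearer to subclone 18. Cdca8, a subunit of the chromosomal passenger complex, was at 8.57, 8.57 and 8.71 in subclone 2, at 9.99, 10.05 and 10.15 in subclone 18 and between 9.63 and 9.84 in the others. Birc5, coding for survivin of the same complex, was at 10.22 ± 0.076 in subclone 2, at 11.36 ± 0.069 in subclone 18 and between 10.85 and 11.12 elsewhere. The cyclin gene Ccna2 was at 9.84 ± 0.12, 11.09 ± 0.083 and 10.65 to 11.03. Cell number and growth state at the time of RNA extraction are not given in the labels, and their part in these values was not tested.

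Promoters of many mitotic genes carry the cell cycle homology region, TTTGAA, where a repressor complex sits in resting cells. TTTGAA was searched in the same windows on both strands (reverse TTCAAA, which shares no overlap with the hypoxia core). It stood in 11 of 18 windows (61.1%) of 17 of the 22 called genes, in 11 of 23 windows (47.8%) of the rest of the list and in 5878 of 32851 windows (17.9%) of all genes. Cdc20 (chr4:118437294-118437593, minus strand) is shown as the called gene with the largest difference and Mki67 (chr7:135716330-135716629, minus strand), which codes for the proliferation antigen Ki-67, as the one with 2 matches. Mki67 was at 9.63, 9.53 and 9.83 in subclone 2 and at 11.02, 11.07 and 11.06 in subclone 18 (-1.39 ± 0.062). Capitals mark the matches.
Cdc20: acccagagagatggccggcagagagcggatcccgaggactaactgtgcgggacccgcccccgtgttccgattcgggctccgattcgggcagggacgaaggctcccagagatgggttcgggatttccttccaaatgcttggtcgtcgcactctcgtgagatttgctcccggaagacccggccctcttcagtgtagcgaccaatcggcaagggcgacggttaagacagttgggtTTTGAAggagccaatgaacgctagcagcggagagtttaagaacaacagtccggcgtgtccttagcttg
Mki67: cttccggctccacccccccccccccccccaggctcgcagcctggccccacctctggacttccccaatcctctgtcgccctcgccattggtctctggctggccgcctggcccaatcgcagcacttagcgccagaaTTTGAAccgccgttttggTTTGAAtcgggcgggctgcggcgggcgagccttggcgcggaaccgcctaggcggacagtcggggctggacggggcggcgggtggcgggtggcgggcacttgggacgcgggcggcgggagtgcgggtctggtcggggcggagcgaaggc

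Stress and cell death genes were mixed. Of 41 genes that answer stress of the endoplasmic reticulum or lack of amino acids, 4 were called higher in subclone 2 and 2 higher in subclone 18, with a median of 0.19. Nupr1, a small stress-induced chromatin protein, was at 10.69, 10.61 and 10.64 in subclone 2 and 7.76, 7.85 and 7.63 in subclone 18, and the other subclones ranged from 9.40 to 10.52. Slc7a11, the cystine transporter, differed by 1.95 ± 0.076 and Trib3 by 1.47 ± 0.083, while the serine metabolism genes Phgdh (-1.15 ± 0.048) and Shmt2 (-1.18 ± 0.042) were higher in subclone 18. Of 30 p53 targets 1 was called higher in subclone 2, the DNA damage gene Gadd45a (1.93 ± 0.042), and 3 higher in subclone 18. Those 3 were Plk2 (-1.5 ± 0.061, but -0.75 over all probe sets), Pmaip1 (-1.46 ± 0.052) and Ckap2 (-1.14 ± 0.073), and the median of the list was -0.33.

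Apoptosis genes were split, with 4 called in each direction among 35 and a median of 0.14. Birc3, a ubiquitin ligase that blocks caspase activation downstream of tumour necrosis factor receptors, was at 8.95, 8.99 and 9.07 in subclone 2 and at 4.67, 4.96 and 4.65 in subclone 18 (4.24 ± 0.067, or 18.9-fold). The other 6 subclones had means from 7.5 to 8.86, so subclone 18 was apart. Its chromosome neighbours Birc2 (0.31) and Yap1 (-0.11) did not reach 2-fold, and a dimmer Birc3 probe set gave 0.39. Bcl2 (1.35 ± 0.06, but 0.98 over all its probe sets) and the proapoptotic Bcl2l11 (1.16 ± 0.045) were both higher in subclone 2. The inflammatory caspases were divided, Casp1 being higher in subclone 2 (1.48 ± 0.057) and Casp4 (-1.83 ± 0.06) and Casp12 (-2.97 ± 0.067) higher in subclone 18. Of 29 feedback and target genes of NF-kappaB, 4 were called higher in subclone 2 and 0 higher in subclone 18, the 4 being Birc3, Mmp9, Ptgs2 (1.09 ± 0.062) and Cxcl5, with a list median of 0.18. At any size, 14 of the list passed the adjusted p as higher in subclone 2 and 2 as higher in subclone 18.

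The 15 largest differences on the side of subclone 2 also held the following genes. Trim44, coding for a tripartite motif protein, was at 9.56, 9.47 and 9.56 in subclone 2 and at 4.47, 4.59 and 4.28 in subclone 18, while the other means lay between 8.86 and 9.82. Sesn3, a sestrin that restrains TORC1, was at 8.83 ± 0.114 and 4.40 ± 0.09 (4.43 ± 0.06), and Abca1, the cholesterol exporter, at 8.88 ± 0.078 and 4.81 ± 0.114 (4.07 ± 0.072), both with subclone 18 apart. The difference was confined to the brightest probe set for Abca1, whose dimmer sets gave 0.21 and -0.07, but reached 1.00 and 1.61 in those of Trim44 and 2.59 in that of Sesn3. Basp1, a membrane-bound growth-cone protein, was at 12.24 ± 0.008 in subclone 2 and 7.30 ± 0.042 in subclone 18, with subclones 19 (6.06) and 23 (7.58) also low. Scara5, a ferritin receptor, was arranged like it, at 10.60 ± 0.055 and 5.98 ± 0.112 with subclones 19 (5.24) and 23 (5.01) low. Gch1, which starts tetrahydrobiopterin synthesis, differed by 4.07 ± 0.056.

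The 15 largest differences on the side of subclone 18 also held genes of varied function. Dppa4, a chromatin protein of pluripotent cells, was at 4.76, 4.80 and 4.72 in subclone 2 and 9.0, 9.12 and 9.03 in subclone 18. Its means were higher still in subclones 23 (10.88) and 28 (9.38), and subclone 19 was at 7.29. Runx1t1, a transcriptional corepressor, was at 5.33, 5.45 and 5.26 against 9.05, 9.17 and 9.32 (-3.83 ± 0.093), and the other means ended at 6.36. App, the amyloid precursor protein gene, was at 4.66 ± 0.176 and 8.49 ± 0.022, and of the others only subclone 23 (8.64) had a like level. Lgalsl, a galectin-like gene, differed by -4.85 ± 0.094, B3galnt1, a glycosyltransferase gene of globoside synthesis, by -4.53 ± 0.12, and Steap4, a metalloreductase gene, by -3.88 ± 0.13. The homeobox genes Hoxa11 and Hoxa10 are neighbours on chromosome 6 and ran in opposite directions. Hoxa11 was at 7.98, 7.96 and 7.98 in subclone 2 and 4.21, 4.56 and 4.54 in subclone 18, while Hoxa10 was at 6.92, 7.05 and 6.95 against 8.49, 8.77 and 8.60.

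Imprinted genes, which are read from the copy of one parent, had 2 of 43 called higher in subclone 2 and 4 higher in subclone 18, with a median of -0.04. The 2 were Dcn and Ppp1r9a, and the 4 were Xist, Ndn, Slc38a4 and Gatm. Imprinted genes outside the list, picked after their values were seen, were also called. Among them were Sfmbt2 (-1.65), Snhg14 (-1.38) and Peg12 (-1.31), higher in subclone 18, and Airn (1.11), higher in subclone 2. Ndn, coding for the growth suppressor necdin, was at 5.44, 5.53 and 5.62 in subclone 2 and at 10.20, 10.19 and 10.20 in subclone 18 (-4.67 ± 0.085, or 25.4-fold). Subclones 23 (9.07) and 28 (7.83) were intermediate and the others at 5.98 or lower. Of 7 further Ndn probe sets 6 gave differences from -7.06 to -5.19 and the dimmest gave -0.17. Next to it on chromosome 7, Snhg14 differed by -1.38 and Ube3a by 0.09. Slc38a4, an amino acid transporter gene, was at 7.98, 7.98 and 7.99 against 10.80, 10.91 and 10.89 (-2.88 ± 0.087).

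Xist, the RNA that coats and silences an X chromosome in female cells, had the largest difference among genes higher in subclone 18 by the 1 probe set kept for each gene, although 4 of the further Ndn probe sets differed more. It was at 5.44, 5.57 and 5.61 in subclone 2 and at 11.28, 11.37 and 11.48 in subclone 18, without overlap (-5.84 ± 0.14, or 57.2-fold, with subclone 2 under an intensity of 50), and 2 further probe sets gave -5.34 and -5.30. Subclones 19 (11.34) and 28 (11.18) had Xist at the level of subclone 18, and the other 4 were at 5.82 or lower. Of 617 X-linked genes measured, 29 were called higher in subclone 2 and 12 higher in subclone 18, where 2.35% and 2.15% of all genes were so called. In 19 of those 29 genes subclone 19 was the only other subclone with a mean nearer to subclone 18, an arrangement found in 48 of all 428 genes (11.2%) called higher in subclone 2. Subclone 28 lay with subclone 18 in 1 of the 29, Ptchd1 (2.68), although it had Xist at a like level.

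The X-linked genes of this kind included neighbours. Armcx2 was at 10.95, 10.98 and 10.87 in subclone 2, at 4.24, 4.33 and 4.36 in subclone 18 and at 4.26 in subclone 19, with the other 5 between 10.94 and 11.16. Armcx3, beside it, differed by 3.77 ± 0.076. Nxt2, the neighbour of Col4a5, differed by 2.58 ± 0.11 and Tmem47 and its neighbour Prrg1 by 4.49 ± 0.068 and 3.77 ± 0.077. Zmat1 (1.23) beside Armcx2 and Acsl4 (1.0) beside Nxt2 were called as well. For Acsl4, however, subclone 24 and not subclone 19 lay with subclone 18. Other expressed neighbours were not called, such as Armcx1 (-0.14) beside Armcx3, Atg4a (0.26) beside Col4a5 and Tab3 (-0.31) beside Tmem47. Neither neighbour of Bgn was called, Haus7 being at -0.46 and Dusp9 at -0.22. Tspan6, a tetraspanin gene, was at 8.83 ± 0.026 and 4.42 ± 0.23. The median over the 254 expressed X-linked genes was -0.02. Higher in subclone 18 were Cask (-1.40 ± 0.084), a scaffold kinase gene, Hmgb3 (-1.22 ± 0.067) and Pola1 (-1.22 ± 0.057), the last at -0.52 over all its probe sets.

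Lists of epithelial and mesenchymal identity held 2 called genes each, a share near the 4.5% called over all genes. Of 42 keratin and epithelial junction genes only Krt8 and Marveld2 (1.16 ± 0.13, but 0.62 with a constant of 64) were called, both higher in subclone 2, and Cdh1, the epithelial cadherin, was near the lower end in both at 4.58 and 4.43. Of 33 mesenchymal genes only Pdgfrb and Snai2 (-1.28 ± 0.055) were called, both higher in subclone 18, and Vim was at 13.76 ± 0.023 and 13.67 ± 0.042. At any size, 7 epithelial and 8 mesenchymal genes were higher in subclone 2, and 5 and 11 in subclone 18. Genes of these kinds outside the lists, picked after their values were seen, were called both ways. Examples are the junction genes Cgnl1 (1.35) and Cxadr (-1.29) and the mesenchymal genes Loxl3 (2.67) and Prrx2 (-1.6). Interferon-stimulated genes had 1 of 38 called higher in subclone 2, Slfn2 (1.68 ± 0.13), and 4 higher in subclone 18, among them Trim30a (-2.13 ± 0.094) and Irgm1 (-1.35 ± 0.091). That split is of the list alone, since interferon-inducible genes outside it, picked after their values were seen, were called higher in subclone 2, such as Ifi207 (3.46), Ifi204 (2.72), Ifitm6 (2.49) and Ifitm1 (2.01). Nlrc5 (-1.04 ± 0.096) was the single call among 16 class I presentation genes, and was below 2-fold without the third array of subclone 18 (-0.95). Of 30 NRF2 targets 2 were called, both higher in subclone 2, and of 30 sterol and fatty acid genes 2 were higher in subclone 2 and 1 in subclone 18. Of these, Gsta3 of the NRF2 list came to 0.98 without the third array of subclone 18 and Acss2 of the sterol list to 0.99 without the first. The list of ERK pathway output had 1 call of 25, Ereg (1.42 ± 0.049), an EGF receptor ligand, with a median of 0.47, and 15 of its genes were higher in subclone 2 and 6 in subclone 18 at any size. By limma 0 of 26 ribosomal protein genes were called, though 11 had an unadjusted p under 0.05, with 2 higher in subclone 2 and 4 in subclone 18 after adjustment at any size. Likewise 0 of 39 oxidative phosphorylation genes were called, though 23 had an unadjusted p under 0.05, and 7 and 12 passed after adjustment. Factors linked to fat tissue and wasting had 5 of 43 genes called in each direction, with a median of 0.10.

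**Figure D3:**
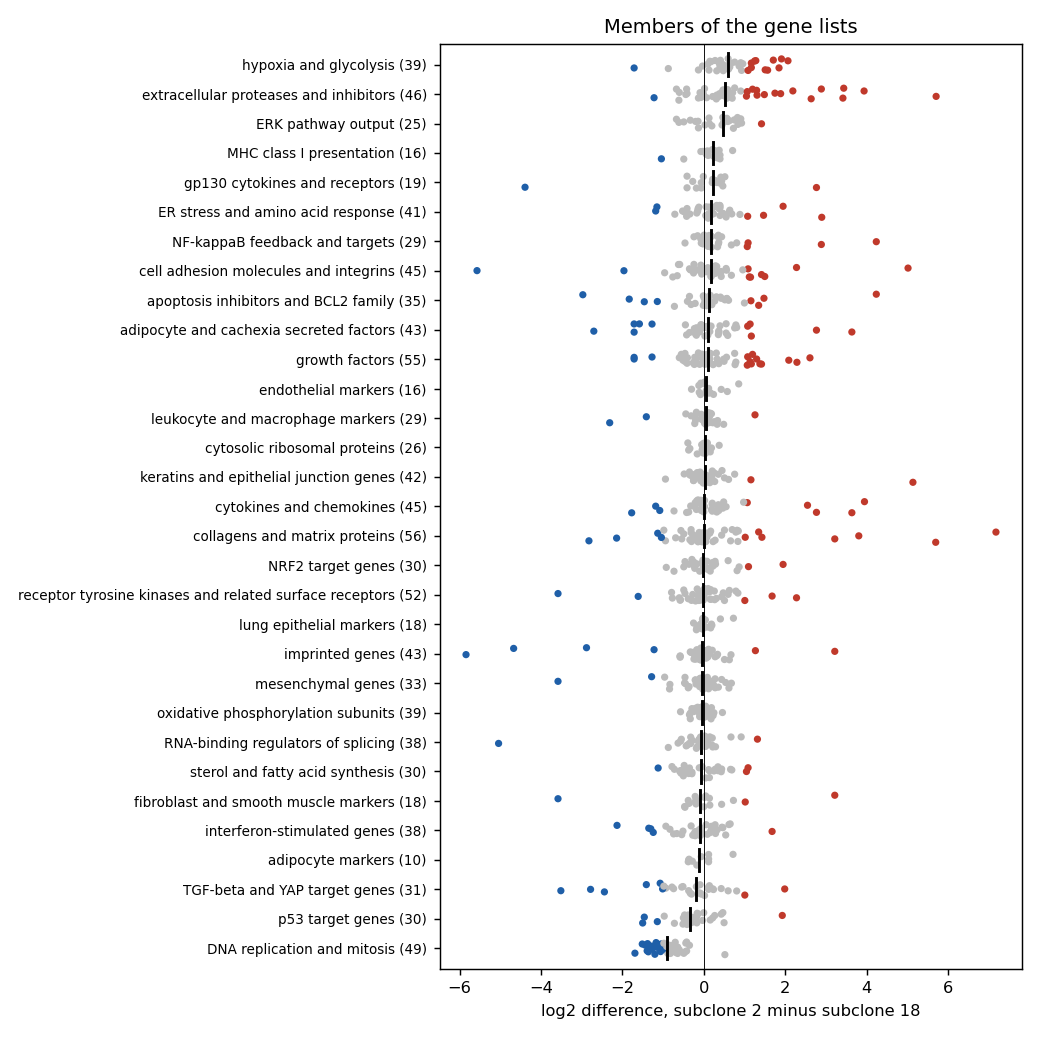
Difference in log2(intensity + 16), subclone 2 minus subclone 18, for each measured member of the 31 gene lists, with the number measured in brackets. Points are genes, red where called higher in subclone 2, blue where called higher in subclone 18 and grey where not called, and the black bar is the median, which runs from 0.60 for hypoxia and glycolysis to -0.89 for DNA replication and mitosis.

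Markers of other cells were checked, since Mmp12, Ccl5 and Cd34 are also genes of leukocytes or endothelium. Of 29 leukocyte and macrophage markers, 18 were under an intensity of 50 on all 6 arrays, and the mean level of the list was 5.39 to 5.46 in subclone 2 and 5.45 to 5.46 in subclone 18. Over all genes, 7041 of 18193 were under 50 on all 6 arrays. The list members Ptprc (4.51 and 4.70), Adgre1 (4.69 and 4.75), Itgam (4.90 and 5.21) and Tyrobp (4.75 and 4.64) were at the lower end of the scale in both subclones. Csf1r, a macrophage receptor gene of the same list, was above it in both, at 7.29 and 7.07. Cd68 was called higher in subclone 2 (1.26 ± 0.096) and the lysozyme genes Lyz1 (-2.31 ± 0.091) and Lyz2 (-1.41 ± 0.064) higher in subclone 18, but Cd68 (0.87) and Lyz2 (-0.95) were below 2-fold with a constant of 64. Of 16 endothelial markers 12 were under 50 on all 6 arrays and 0 were called by limma, with 4 at an unadjusted p under 0.05, all 4 of them higher in subclone 2 after adjustment as well. Their mean level was 5.50 to 5.62 in subclone 2 and 5.42 to 5.47 in subclone 18. Of 18 lung epithelial markers 13 were under 50 and 0 were called by limma, with 3 at an unadjusted p under 0.05 and 2, both higher in subclone 2, after adjustment, and the surfactant gene Sftpc was at 5.51 and 5.54. Of 18 fibroblast and smooth muscle markers, Dcn and Lum were called higher in subclone 2 and Pdgfrb in subclone 18. Without the third array of subclone 2 Lum came to 0.99, below 2-fold. Of 10 adipocyte markers 0 were called by limma, with 3 at an unadjusted p under 0.05, of which 1 was higher in subclone 2 and 2 in subclone 18 after adjustment. With 4.5% of all genes called, 0 calls in lists this short say little about these cell types.

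The other 6 subclones were not part of the difference and show where each gene stood elsewhere in the series. For each called gene the midpoint of the means of subclones 2 and 18 was taken. In 148 genes (18.1%) all 17 other arrays lay on the side of subclone 2, so that subclone 18 was apart, and in 37 (4.52%) all lay on the side of subclone 18. The remaining 634 (77.4%) were divided. Of the 148, 104 were lower in subclone 18 than elsewhere, such as Krt8, Trim44, Cadm1, Birc3 and the homeobox gene Isl1 (3.69 ± 0.071), and 44 were higher, such as Lifr, Runx1t1, Pdgfrb, Vgll3 and Nid2. Of the 37 with subclone 2 apart, 34 were lower in it and 3 were higher. Besides mitotic genes, the 34 held Tbc1d4, a regulator of glucose transporter traffic, at 6.66, 6.6 and 6.51 in subclone 2, at 8.71, 8.67 and 8.81 in subclone 18 and from 8.05 to 9.26 in the others. The 3 were Slfn2, Lsp1 (1.15 ± 0.084) and Lum (1.02 ± 0.095), the last near the 2-fold limit.

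By the mean of each subclone, subclone 19 lay on the side of subclone 18 in 58.4% of the called genes and subclone 23 in 51.8%, and subclone 24 did in 35.7%. For subclones 3, 6 and 28 the shares were 23.1%, 22.6% and 23.7%. In every one of the 6 the share was larger among genes higher in subclone 18 than among genes higher in subclone 2, for example 40.4% and 6.31% for subclone 6.

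**Figure D4:**
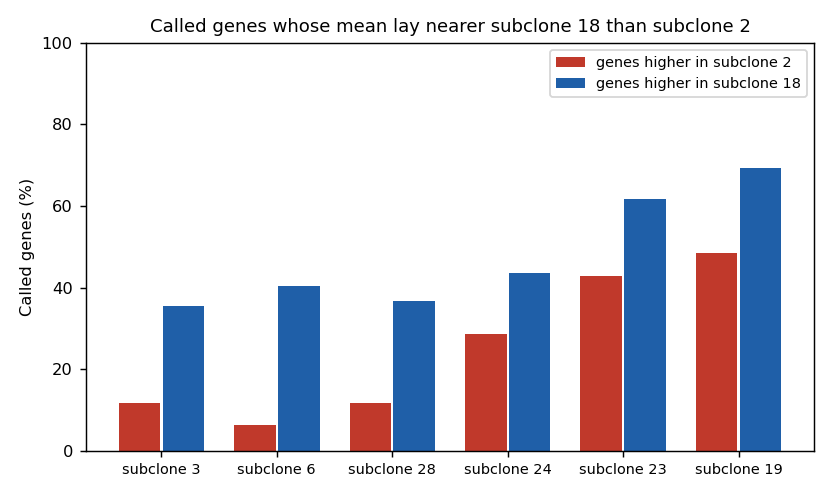
Share of called genes (percent) in which the mean of each other subclone lay on the side of subclone 18 of the midpoint between subclones 2 and 18, for the 428 genes higher in subclone 2 (red) and the 391 higher in subclone 18 (blue). The blue bar is the taller in all 6 subclones, and both bars are tallest for subclone 19, at 48.4% and 69.3%.

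By chromosome, the 8894 genes with a mean of at least 7 over the 6 arrays held 535 called genes (6.02%) and had a median difference of -0.03. Chromosome 6 stood at 0.25, with 34 genes called higher in subclone 2 and 5 higher in subclone 18 among 446. Chromosomes 10 (-0.31) and 13 (-0.30) leaned to subclone 18, with 29 and 22 genes called higher there against 8 and 9 higher in subclone 2. Set against the mean of the other 6 subclones, the shift on chromosome 6 lay in subclone 18, whose arrays were at -0.22, -0.17 and -0.16, while those of subclone 2 were at 0.04, 0.03 and 0.06. On chromosome 10 both stood away from the others, subclone 2 at -0.12, -0.13 and -0.09 and subclone 18 at 0.16, 0.21 and 0.21. Chromosome 13 was alike, at -0.16, -0.17 and -0.14 and at 0.12, 0.17 and 0.19. On chromosome 19 both were below the others, subclone 18 (-0.39, -0.35 and -0.32) more than subclone 2 (-0.17, -0.19 and -0.13). The number of copies of each chromosome was not measured here.

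**Figure D5:**
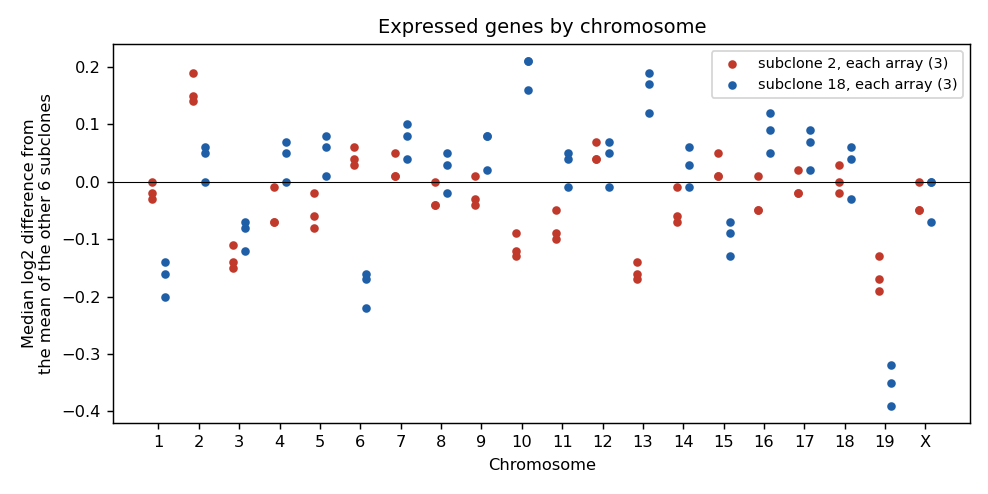
Median log2 difference of each array from the mean of the other 6 subclones, over the expressed genes of each chromosome (x axis), for the 3 arrays of subclone 2 (red) and the 3 of subclone 18 (blue). The arrays of the pair lie on opposite sides of 0 on chromosomes 6, 10 and 13, and with a smaller gap on others such as 5 and 15. All 6 lie below it on chromosome 19, as they also do on chromosome 3.

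Further probe sets carry the same gene symbol and had no part in the choice of the pair. Probe sequences were not used here, and some of these sets may share sequence with the reported one, so they are not independent of it. The called genes had 869 of them in 475 genes, of which 768 (88.4%) had the sign of the reported probe set and 320 (36.8%) also differed 2-fold, while 0 differed 2-fold in the opposite direction. Among the 269 with a mean level of at least 7, 267 (99.3%) had the same sign and 187 (69.5%) differed 2-fold.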

How the data were processed

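The authors deposited 1 table of linear intensities for 45101 probe sets on 23 Affymetrix arrays; their algorithm, scaling, software and genome build are not given in the sources used for this work. The intensities of the 6 arrays had medians from 40.87 to 43.30. Precision is limited by 3 arrays for each subclone. Here 64 control probe sets were removed. Of the rest, 34945 have a single symbol in GEO's platform annotation, 932 have several, 9160 are not listed there, and 34741 symbols were brought to current RefSeq names. The probe set with the highest mean over all arrays stood for each of 18193 genes. Values were taken as log2(intensity + 16) and fitted with limma 3.58.1 in R 4.3.3 on all 23 arrays, 1 coefficient per subclone, with eBayes and Benjamini-Hochberg adjustment over all genes. Errors are SD over arrays or SE of the fit. Tested on simulated data, the fit recovered 200 of 200 changed genes. All planted differences were above the 2-fold limit, so this says nothing about genes near it.

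The genes and the 31 lists (87 of 1157 list symbols had no measured gene) were chosen with earlier results of these data known. Named genes are the 3 markers, the 15 largest called differences in each direction, up to 4 called list members per direction and list, Xist and up to 6 called X-linked genes per direction. Other genes named in the text, such as Plau, Hoxa11, Tbc1d4, Mki67 and the neighbours of named genes, were chosen after their values were seen. Replicate numbers were not used to pair the arrays. Same-numbered arrays of the pair deviated with correlations of 0.000377, -0.00725 and -0.0556 over genes. These values do not settle whether such arrays were handled together. Alternatives were other constants, a filter on low values, quantile normalization, the mean of all probe sets, a stricter adjusted p, a fit on 6 arrays, a trend, a replicate block and leaving out each array.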

Additional observations from a re-analysis of the deposited data

How the results depend on the processing

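Under 15 alternatives, 100 of the 125 named genes stayed called wherever they were tested and 0 changed sign. With a constant of 1 the genes called higher in subclone 18 became 598 and the divided genes 994, and with 64 the counts were 229 higher in subclone 18, 98 with subclone 18 apart, 21 with subclone 2 apart and 397 divided; the constant itself compresses dim genes. Over the mean of all probe sets 23 genes had subclone 2 apart, and it kept 573 of the 819 reported calls (70%) among the 603 it made. Leaving out each array gave 413 to 448 genes higher in subclone 2, 377 to 427 higher in subclone 18, 144 to 151 with subclone 18 apart, 33 to 49 with subclone 2 apart and 628 to 657 divided. The lists with more members called higher in subclone 2 numbered 11 to 16, and those with more called higher in subclone 18 numbered 7 to 9. With the replicate number as a block, 819 genes were called, all 819 shared. Whether the numbers pair these samples is not known. The median over all genes stayed between -0.019 and 0.004.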
